A study of Mus musculus with 4 samples.

Results

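The Wnt module of the mouse kidney medulla comprised 59 of the 27179 genes in the deposited table. Members were chosen by symbol: the Wnt ligands, the Frizzled receptors, the Sfrp and Dkk inhibitors, the R-spondins, and 17 named co-receptors, receptors, enzymes and effectors. By role these were 19 ligands, 3 genes of ligand processing, 10 Frizzled receptors, 4 co-receptors, 9 secreted inhibitors, 9 genes of the R-spondin axis, 4 nuclear effectors or feedback genes, and the opposite-strand transcript Fzd10os, which the symbol pattern also takes in. The data were 4 mRNA sequencing libraries of kidney medulla at postnatal day 14, from mice of a mixed C57BL/6 background. The animals labelled Actr3 KO had a floxed Actr3 gene (the Arp3 subunit of the actin-nucleating Arp2/3 complex) and Cre driven by the promoter of Cdh16, the cadherin of kidney tubule epithelium, and gave 2 libraries. The controls were labelled wild type and gave the other 2 libraries; whether they carried floxed alleles or Cre is not stated. Cre of this kind acts in tubule cells, whereas many Wnt genes are made by the stroma between tubules, and these whole-tissue counts do not separate the cell types.

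Wnt proteins are lipid-modified secreted signals. They bind Frizzled receptors, and with the co-receptors Lrp5 and Lrp6 they stabilise beta-catenin, which then activates genes together with the TCF and LEF factors; other Wnt signals run through Ror receptors and planar cell polarity proteins without beta-catenin. R-spondins bind Lgr receptors and amplify the signal by removing Znrf3 and Rnf43, ubiquitin ligases that clear Frizzled from the membrane. In the developing kidney Wnt9b and Wnt4 drive the formation of nephrons, Wnt11 branching of the ureteric bud, and Wnt7b from the collecting duct the growth of the medulla.

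The libraries held 36482238 to 40784436 reads assigned to genes, with 18972 to 19249 genes detected. Actr3 itself was higher in the KO-labelled libraries, at 12587 and 12480 normalized counts against 8065 and 7275 in the WT-labelled ones; a whole-gene count does not show whether an exon was deleted, so the directions below rest on the labels. Among 16253 genes tested, 51.2% were called by limma at an adjusted p under 0.05, made up of 26.3% higher and 24.9% lower with the KO label. None of the 12 marker lists held a gene at 0 throughout. Markers of the medullary tubules were read in all 4 libraries but were mostly lower with the KO label. In the thick ascending limb list 7 of 10 fell and 1 rose, with summed counts of 180251 to 259509 in KO-labelled and 493851 to 511402 in WT-labelled libraries. In the thin limb list 8 of 10 fell, with 49900 to 62817 against 155337 to 188583. Of 14 stromal markers 8 rose and 1 fell, and their summed counts were 544295 to 626749 in KO-labelled and 226078 to 236696 in WT-labelled libraries. All 10 macrophage and all 10 injured-tubule markers rose, and all 10 endothelial markers fell. Fewer cells of a type and less RNA per cell cannot be told apart in such whole-tissue counts. The part of these shifts in the results below was not tested.

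Of the 59 members, 50 reached the filter of a mean of at least 10 normalized counts; 23 of these were higher, 10 lower, and 17 did not pass the threshold. That share of higher members stands against 26.3% of all genes tested, and that of lower ones against 24.9%. The numbers of members called were the same with edgeR, which called 51.1% of all genes (25.8% higher and 25.3% lower), and with DESeq2, which called 48.1% (24.6% higher and 23.5% lower). Counts were also simulated for the same number of libraries, with few changed genes. There limma, edgeR and DESeq2 each made a larger share of false calls than the threshold allows. That share depends on how many genes change, and 51.2% of all genes tested were called here, so its size does not carry over. Calls close to the threshold are still to be read with caution. The groups did not overlap for 30 members that lay above and 14 that lay below, where 39.8% and 38.7% of all genes tested were so separated. The median log2 difference of the members tested was 0.36, beside 0.0029 for all genes tested. Wnt7a, Wnt10b, Wnt8b and Wif1 had a mean of at least 10 in 1 group only, so that their place among the members tested depended on that group. A log2 difference of at least 1 was reached by 15 of the higher and 6 of the lower members. The share of all genes tested that reached this size was not counted, so these 2 numbers only describe the members. Counts, differences and folds below are KO-labelled against WT-labelled, in read counts divided by the authors' size factor for each library.

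**Figure D1:**
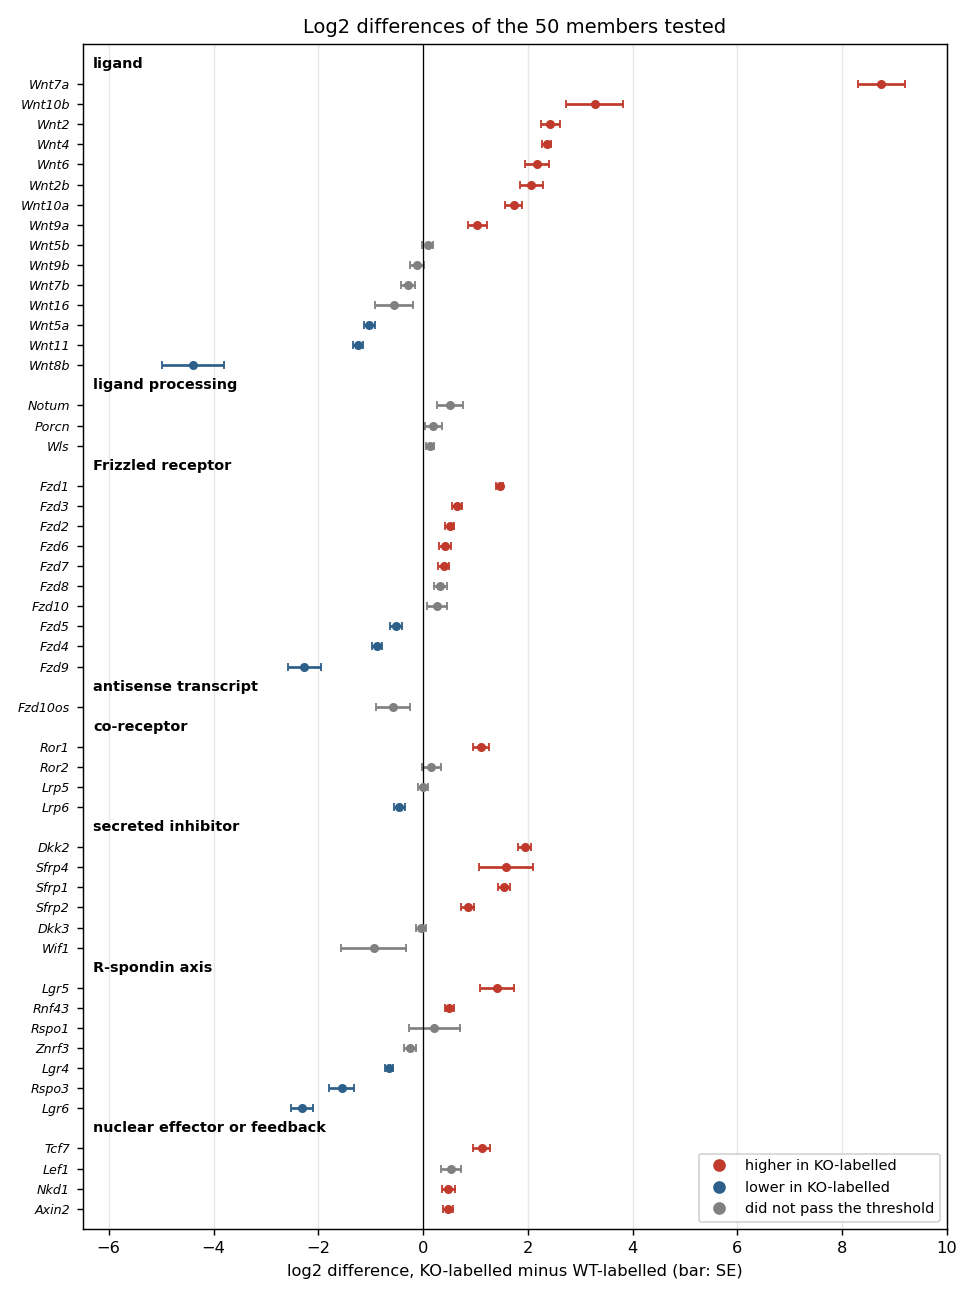
Log2 difference (horizontal axis, log2(normalized count + 1) of KO-labelled minus that of WT-labelled libraries) of the 50 members tested, grouped by role, with bars for the standard error. The ligands spread widest, with 8 higher and 3 lower, and 4 of 6 secreted inhibitors were higher with none lower. Of all genes tested, 26.3% were higher and 24.9% lower.

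The start regions of 4 ligand genes are shown because their transcripts mark the ends of the pattern: Wnt7a, all but unread in the WT-labelled medulla; Wnt4, the ligand with the smallest adjusted p; and Wnt8b and Wnt11, the falls with the largest difference and the smallest adjusted p. Each window holds 250 bases before and 50 after the RefSeq transcription start (GRCm38.p6), read along the gene's strand, with CG dinucleotides in capitals. They lie at chr6:91411304-91411603 (minus strand), chr4:137277385-137277684 (plus), chr19:44493222-44493521 (plus) and, for the more upstream of the starts of Wnt11, chr7:98834862-98835161 (plus).
Wnt7a: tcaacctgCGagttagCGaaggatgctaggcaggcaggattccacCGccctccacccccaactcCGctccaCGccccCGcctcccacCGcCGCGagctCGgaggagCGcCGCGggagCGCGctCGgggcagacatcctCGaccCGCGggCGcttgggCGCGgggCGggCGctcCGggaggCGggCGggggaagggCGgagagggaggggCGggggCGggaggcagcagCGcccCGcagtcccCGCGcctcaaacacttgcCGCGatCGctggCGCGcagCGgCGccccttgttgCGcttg
Wnt4: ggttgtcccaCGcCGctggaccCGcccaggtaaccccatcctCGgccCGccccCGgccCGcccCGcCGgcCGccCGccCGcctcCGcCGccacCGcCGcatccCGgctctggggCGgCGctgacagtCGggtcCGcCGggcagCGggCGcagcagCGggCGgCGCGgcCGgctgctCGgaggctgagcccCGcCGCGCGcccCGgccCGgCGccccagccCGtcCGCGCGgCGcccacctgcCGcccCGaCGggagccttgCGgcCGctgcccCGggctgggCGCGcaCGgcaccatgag
Wnt8b: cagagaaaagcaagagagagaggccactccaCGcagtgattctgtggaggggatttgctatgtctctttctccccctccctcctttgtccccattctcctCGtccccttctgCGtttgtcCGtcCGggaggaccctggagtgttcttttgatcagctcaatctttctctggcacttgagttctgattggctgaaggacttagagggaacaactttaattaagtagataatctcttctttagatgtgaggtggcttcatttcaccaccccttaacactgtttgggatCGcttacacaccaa
Wnt11: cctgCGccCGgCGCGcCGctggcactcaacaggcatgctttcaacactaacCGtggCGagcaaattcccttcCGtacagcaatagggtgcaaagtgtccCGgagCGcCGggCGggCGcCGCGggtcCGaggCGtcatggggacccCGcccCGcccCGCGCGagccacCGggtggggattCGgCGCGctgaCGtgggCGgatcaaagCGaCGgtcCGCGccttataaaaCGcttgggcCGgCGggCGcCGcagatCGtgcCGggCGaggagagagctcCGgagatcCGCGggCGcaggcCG

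The Wnt7a and Wnt4 windows, of the genes that rose, held 42 and 51 CG dinucleotides, and that of Wnt11, which fell, held 45; 97.0%, 99.3% and 98.1% of the 32851 windows of the same length held fewer. Wnt8b, the deepest fall among the ligands, had 6, close to the median of 7 over all windows. Over the 46 windows available for members the median was 24. The 4 genes were picked for their values, and high counts stood beside both a rise and a fall. The part of CG density in the changes was not tested. The core TCF/LEF letters CTTTGAT and CTTTGAA were searched on both strands in the 46 windows available for 38 members. They were found in 3, those of Wnt11, Wnt5b and Dkk1, which is 6.52% of the members' windows beside 8.65% of all windows. In the Wnt11 window the match is the run atcaaag, the reverse complement of CTTTGAT, upstream of the letters TATAAA. A match is a description of the sequence and not a measured binding site.

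Among the ligands, 8 of the 15 tested rose, 3 fell and 4 did not pass the threshold, where 26.3% of all genes tested rose and 24.9% fell. The risen ligands were Wnt2, Wnt2b, Wnt4, Wnt6, Wnt7a, Wnt9a, Wnt10a and Wnt10b, and the fallen ones Wnt5a, Wnt8b and Wnt11.

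Wnt4 (chromosome 4, 137277635 to 137299501, GRCm38), which drives the conversion of mesenchyme to nephron epithelium and is also made by medullary stroma, had 4303 and 4485 normalized counts in KO-labelled libraries against 835 and 881 in WT-labelled ones. The replicates lay close together and the groups far apart. The means were 4394 ± 128 and 858 ± 32.1 (SD, n = 2 each), which is 5.12-fold higher (log2 difference 2.36, SE 0.085; limma, adjusted p = 6.46e-06). Wnt7a (chromosome 6, 91363981 to 91411353), a patterning signal of the limb and the female reproductive tract, had 664 and 546 reads in the KO-labelled libraries against 0 and 1 read in the WT-labelled ones. Its transcripts were thus read in both KO-labelled animals and all but missing from the others. The ratio over the groups was 1227 (exact binomial 95% interval 220 to 48493, counting error only; limma adjusted p = 1.85e-05).

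Wnt10a and Wnt6, epithelial ligands that lie 6.70 kb apart on chromosome 1, both rose. Wnt10a had 1337 and 1047 normalized counts in KO-labelled against 329 and 386 in WT-labelled libraries, a 3.34-fold difference (log2 difference 1.73, SE 0.16, limma adjusted p = 0.000185). Wnt6 had 272 and 378 against 68.0 and 73.6, a 4.59-fold difference (log2 difference 2.17, SE 0.23, adjusted p = 0.000331). Other neighbouring ligand genes were not read alike. On chromosome 11, Wnt9a rose while Wnt3a, 16.1 kb away, had 3 reads in the KO-labelled libraries together and 5 in the WT-labelled ones. On chromosome 15, Wnt10b rose while Wnt1, 11.7 kb away, had no read in any library.

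Wnt2 and its close paralog Wnt2b, which together specify the lung bud, were also higher. Wnt2 had 400 and 418 normalized counts in KO-labelled libraries and 72.9 and 77.5 in WT-labelled ones, a 5.44-fold difference (log2 difference 2.43, SE 0.18, limma adjusted p = 7.66e-05). Wnt2b had 205 and 228 against 55.2 and 46.7, a 4.25-fold difference (adjusted p = 0.00038). Replicates of each gene differed far less than the groups. Wnt9a, a ligand of joint formation, had 500 and 379 against 205 and 220, a 2.07-fold difference (adjusted p = 0.00332). Wnt10b, an inhibitor of fat cell formation, was scarce at 40.8 and 45.2 normalized counts in KO-labelled and 1.97 and 5.96 in WT-labelled libraries, which is 86 summed reads against 8 (log2 difference 3.27, SE 0.54, adjusted p = 0.0024). Such low counts leave its size poorly fixed, with a log2 difference of 2.66 without WT replicate 1 and 3.89 without WT replicate 2.

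Wnt5a, which signals mainly through Ror receptors without beta-catenin, was the most abundant ligand of the WT-labelled medulla and fell. Its normalized counts were 5349 and 6539 in KO-labelled libraries, against 12358 and 11751 in WT-labelled ones. The means of 5944 ± 842 and 12054 ± 429 (SD, n = 2 each) differed by -1.03 on the log2 scale (SE 0.11; limma, adjusted p = 0.000323) for this gene on chromosome 14 (28504543 to 28527448). Wnt11, the ligand of ureteric bud tips, fell with it, to 748 and 781 in KO-labelled against 1802 and 1829 in WT-labelled libraries (log2 difference -1.25, SE 0.093, adjusted p = 7.97e-05; chromosome 7, 98835084 to 98854747). Both kept wide gaps between the groups. Wnt8b, a ligand known from the forebrain, fell to 3.22 and 11.3 in KO-labelled, against 103 and 216 in WT-labelled libraries (log2 difference -4.38, SE 0.59, adjusted p = 0.000996). It was called lower whichever library was left out, but the size was not fixed by these few reads: the log2 difference was -3.61 without KO replicate 1 and -5.16 without KO replicate 2. In each group its higher library had more than 2 times the count of the lower one, yet the groups lay well apart.

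Wnt7b and Wnt9b, ligands of the collecting duct and its precursor, did not pass the threshold, nor did Wnt5b and Wnt16. Wnt7b, needed for medullary growth, had 4321 and 3687 normalized counts in KO-labelled and 4359 and 5466 in WT-labelled libraries (log2 difference -0.29, 95% interval -0.60 to 0.01, limma adjusted p = 0.0996). The interval leaves room for a moderate fall, and without WT replicate 1 it was called lower (log2 difference -0.45, adjusted p = 0.0333). Wnt9b, the ureteric inducer of nephrons, had 3545 and 2711 against 3137 and 3574, with overlapping groups (log2 difference -0.11, 95% interval -0.44 to 0.21, adjusted p = 0.525). Wnt5b, the paralog of Wnt5a, had 996 and 936 against 934 and 883 (log2 difference 0.09, 95% interval -0.16 to 0.33). Wnt16, a ligand known from bone, had 16.1 and 19.8 against 26.6 and 26.8 (log2 difference -0.56, adjusted p = 0.242), and was called lower with no variance trend (0.0377). Of the principal cell markers of the collecting duct 7 of 10 fell, where 24.9% of all genes tested fell. Their summed counts were 21888 to 27734 in KO-labelled against 68683 to 81605 in WT-labelled libraries. The other 3, Gata3, Hoxb7 and Scnn1b, did not pass the threshold. The part of these markers in the ligand counts was not tested. Wnt1 and Wnt8a had no reads in any library, which allows a level of up to 3 reads per library, and Wnt3 had 1 read over the 4 libraries.

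**Figure D2:**
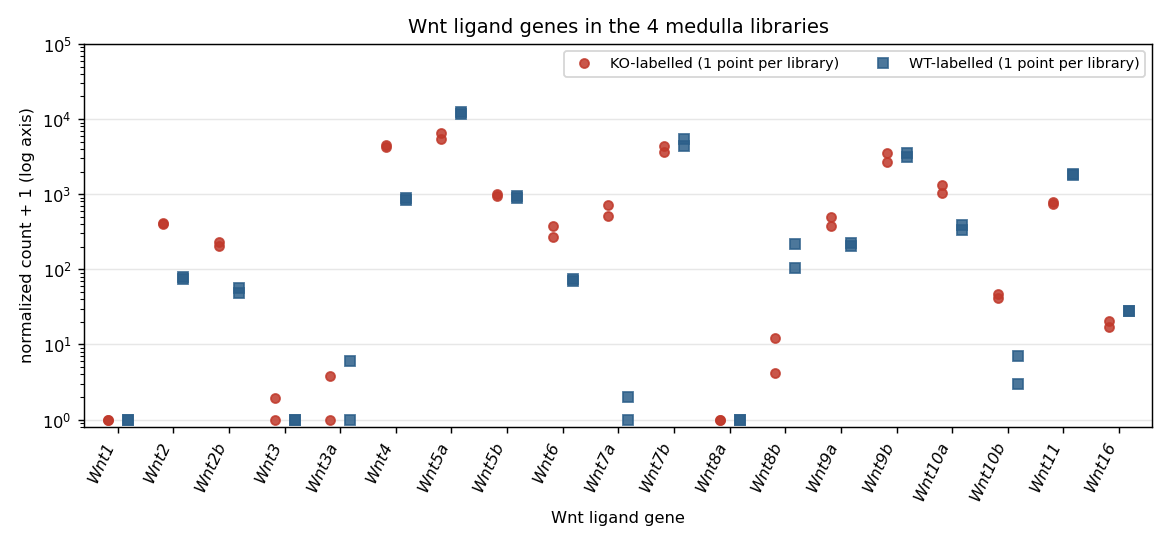
Normalized count + 1 (log axis) of each of the 19 Wnt ligand genes, 1 point per library, with KO-labelled circles left of WT-labelled squares. Wnt7a stands at 712 and 514 in KO-labelled libraries against 0 and 0.994 in WT-labelled ones, whereas Wnt5a and Wnt11 are lower in the KO-labelled libraries.

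To compare levels between ligands, normalized counts were divided by the exon length of each gene in kilobases. The ligand total per kilobase was 5216 and 4934 in KO-labelled libraries and 4458 and 4767 in WT-labelled ones, a ratio of means of 1.10. The make-up of that total shifted more than its size. Wnt5a made up 13.1% and 16.9% of it in KO-labelled libraries, against 35.4% and 31.5% in WT-labelled ones. Wnt4 made up 19.7% and 21.7% against 4.47% and 4.40%. By this measure Wnt4 was first of the ligands in KO-labelled libraries and 6th in WT-labelled ones, while Wnt5a had rank 3 against rank 1. With the longest single transcript as the length, a choice made after the values were seen, Wnt4 was 2nd in KO-labelled libraries. Wnt10a made up 10.4% and 8.60% against 2.99% and 3.28%, and Wnt11 3.46% and 3.83% against 9.77% and 9.27%. The ratio of the total in KO-labelled over WT-labelled libraries depended on which ligands were counted. It was 1.40 over the 18 ligands without Wnt5a and 1.17 without Wnt11, but 0.914 without Wnt4 (4190 and 3865 in KO-labelled against 4259 and 4557 in WT-labelled libraries). These totals and shares are given as a description, with no test.

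**Figure D3:**
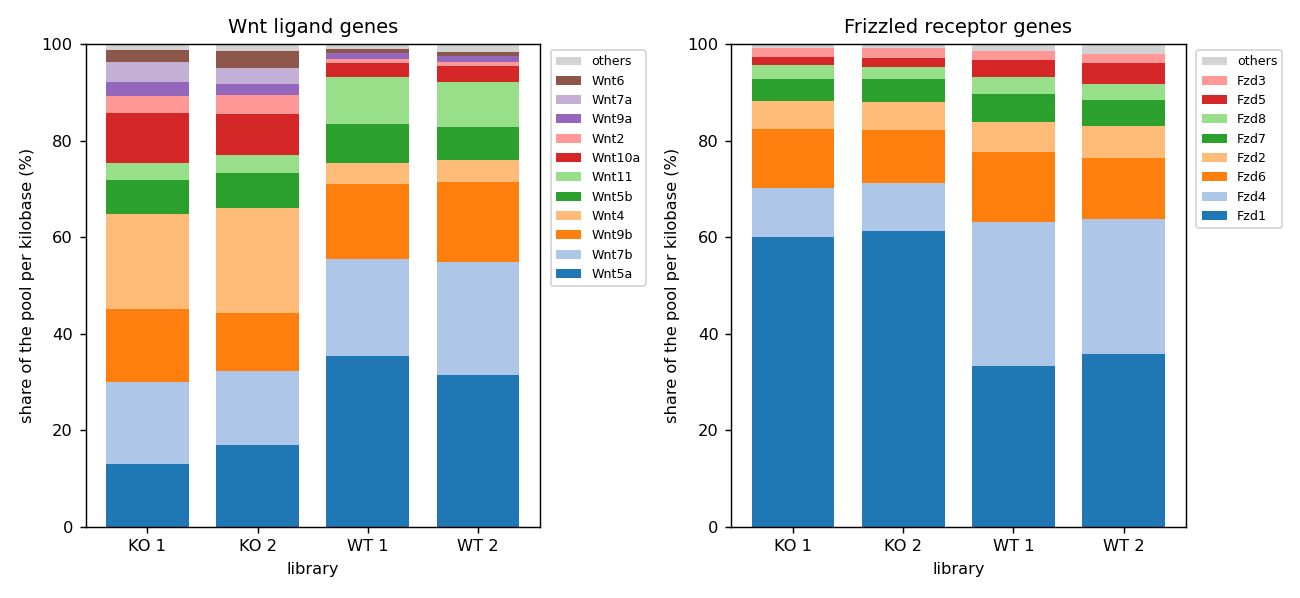
Share (%) of the per-kilobase total taken by each Wnt ligand (left) and each Frizzled receptor (right) in the 4 libraries, with the KO-labelled libraries on the left of each panel and scarce genes pooled as others. The Wnt4 band widens and the Wnt5a band narrows in KO-labelled libraries, and Fzd1 takes 60.0% and 61.3% of the receptor total there against 33.3% and 35.9% in WT-labelled libraries.

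None of the genes that make, carry or inactivate the ligands passed the threshold. Wls, the carrier that takes Wnt proteins to the cell surface, had 15356 and 14163 normalized counts in KO-labelled and 13342 and 13616 in WT-labelled libraries, and its log2 difference of 0.13 had a 95% interval of -0.06 to 0.32. Porcn, the enzyme that attaches the lipid, had 353 and 334 against 273 and 330 (log2 difference 0.19, 95% interval -0.19 to 0.58). Notum, which removes the lipid again, had 187 and 294 against 153 and 175 (log2 difference 0.52, limma adjusted p = 0.124). Without KO replicate 1, Notum was called higher (log2 difference 0.84, adjusted p = 0.029).

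Of the 10 Frizzled receptors 5 rose, 3 fell and 2 did not pass the threshold, where 26.3% of all genes tested rose and 24.9% fell. Fzd1 (chromosome 5, 4753839 to 4758216) was the most abundant receptor per kilobase and showed the largest rise of the family, with 21485 and 22097 normalized counts in KO-labelled and 7917 and 7939 in WT-labelled libraries. The means of 21791 ± 433 and 7928 ± 15.5 (SD, n = 2 each) differed by 1.46 on the log2 scale (SE 0.074; limma, adjusted p = 1.85e-05). Per kilobase the receptor total was 8532 and 8595 in KO-labelled against 5670 and 5276 in WT-labelled libraries, and Fzd1 alone averaged 5192 against 1889. Fzd4, the receptor for Wnt and for Norrin on vessels, fell to 5848 and 5693, against 11403 and 9918 in WT-labelled libraries (log2 difference -0.88, SE 0.090, adjusted p = 0.000291). The 10 endothelial markers had summed counts of 32993 to 34791 in KO-labelled and 95955 to 97823 in WT-labelled libraries. Tspan12, the partner of Fzd4 in Norrin signalling, fell as well, to 5308 and 5304 against 8982 and 9000 (log2 difference -0.76, adjusted p = 0.000201). Ndp, the gene of Norrin itself, named here after its values were seen, rose to 457 and 773 against 310 and 251 (log2 difference 1.09, adjusted p = 0.011). The part of these markers in the fall of Fzd4 was not tested.

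The other receptors moved by smaller steps or were scarce. Fzd3, a polarity receptor, had 2060 and 2281 normalized counts in KO-labelled against 1405 and 1372 in WT-labelled libraries (log2 difference 0.64, limma adjusted p = 0.00129), and Fzd2 1798 and 1847 against 1285 and 1268 (log2 difference 0.51, adjusted p = 0.00264). Fzd9 fell to 19.3 and 18.8 against 81.8 and 111 (log2 difference -2.26, SE 0.31, adjusted p = 0.00107). The remaining calls were less firm. Fzd5 had 948 and 1114 against 1397 and 1536 (log2 difference -0.51, adjusted p = 0.0095), a call lost without KO replicate 1 (adjusted p = 0.056) and without WT replicate 2 (0.0554). Fzd6, which aligns hair follicles in the skin, had 4994 and 4553 against 3958 and 3195 (log2 difference 0.42, adjusted p = 0.0201), lost without KO replicate 1 (0.0895), without WT replicate 2 (0.0795) and with no variance trend (0.0884). Fzd7, with 1776 and 1865 against 1500 and 1286 (log2 difference 0.39, adjusted p = 0.0189), was lost without KO replicate 2 (0.0846), without WT replicate 2 (0.0825) and with no variance trend (0.0659). For each of these genes the groups did not overlap, where 39.8% of all genes tested lay wholly above and 38.7% wholly below.

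Fzd8 had 1548 and 1261 normalized counts in KO-labelled and 1137 and 1084 in WT-labelled libraries, and missed the threshold (log2 difference 0.33, limma adjusted p = 0.0563). It was called higher without KO replicate 2 (adjusted p = 0.0237) and with a robust variance trend (0.049). Fzd10 had 190 and 206 against 149 and 182 (log2 difference 0.27, 95% interval -0.19 to 0.73). Its opposite-strand neighbour Fzd10os had 33.2 and 53.7 against 68.9 and 58.6 (log2 difference -0.58, adjusted p = 0.184).

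The co-receptors of beta-catenin signalling did not share a direction with Fzd1. Lrp6 had 9319 and 11390 normalized counts in KO-labelled and 14394 and 13812 in WT-labelled libraries (log2 difference -0.45, SE 0.11, limma adjusted p = 0.0115). The call of Lrp6 was lost without KO replicate 1 (adjusted p = 0.075), without WT replicate 1 (0.0594) and with no variance trend (0.0638). Lrp5 had 5867 and 5165 against 5280 and 5764, with overlapping groups and a 95% interval of the log2 difference from -0.22 to 0.22. Among the Wnt5a receptors of the Ror family, Ror1 rose to 389 and 412 against 181 and 188 (log2 difference 1.11, SE 0.15, adjusted p = 0.0011). Ror2 had 1038 and 1050 against 758 and 1152 (log2 difference 0.16, 95% interval -0.29 to 0.60); without WT replicate 2 it was called higher (log2 difference 0.46, adjusted p = 0.032). Thus Wnt5a fell while neither Ror gene was called lower.

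**Figure D4:**
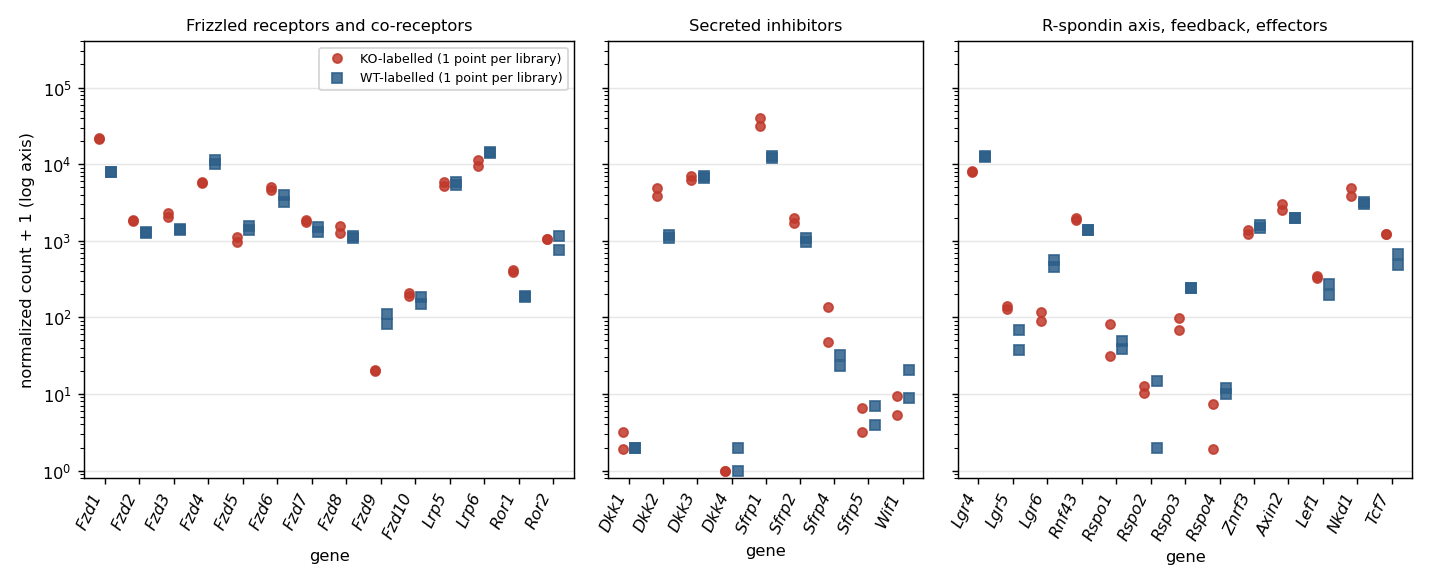
Normalized count + 1 (log axis) of receptors and co-receptors (left), secreted inhibitors (middle) and R-spondin axis, feedback and effector genes (right), 1 point per library, KO-labelled circles left of WT-labelled squares. Fzd1, Sfrp1 and Dkk2 are higher and Fzd4, Fzd9, Lgr6 and Rspo3 lower in both KO-labelled libraries.

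Secreted inhibitors were among the most abundant members, and 4 of the 6 tested rose, where 26.3% of all genes tested rose. Sfrp1 (chromosome 8, 23411383 to 23449632), a decoy that binds Wnt proteins, had 31828 and 40231 normalized counts in KO-labelled and 12588 and 11979 in WT-labelled libraries. The means of 36029 ± 5942 and 12284 ± 430 (SD, n = 2 each) differed by 1.54 on the log2 scale (SE 0.12; limma, adjusted p = 9.44e-05). Its paralog Sfrp2 had 1685 and 1962 against 951 and 1072 (log2 difference 0.85, SE 0.12, adjusted p = 0.00102). Dkk2 (chromosome 3, 132085266 to 132180304), a ligand of Lrp5 and Lrp6 that limits Wnt signalling, had 3854 and 4856 against 1184 and 1075, a 3.85-fold difference (log2 difference 1.94, SE 0.12, adjusted p = 4.46e-05). Every KO-labelled value of these genes lay above every WT-labelled one, as was so for 39.8% of all genes tested.

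Sfrp4, the remaining inhibitor called, was scarce and uneven. It had 47.2 and 138 normalized counts in KO-labelled and 31.5 and 21.9 in WT-labelled libraries (log2 difference 1.58, SE 0.51, limma adjusted p = 0.0377). The call was lost without KO replicate 2 (log2 difference 0.82, adjusted p = 0.18, against 2.35 without KO replicate 1), without WT replicate 1 (0.0769), without WT replicate 2 (0.158), with no variance trend (0.1) and with no filter (0.0748). Dkk3, a divergent family member, did not pass the threshold, at 6128 and 7073 against 6494 and 7035 (log2 difference -0.04, 95% interval -0.26 to 0.19). Wif1, another Wnt-binding decoy, had 4.29 and 8.48 against 19.7 and 7.95 (adjusted p = 0.241). Dkk1, Dkk4 and Sfrp5 were near silent, with 3, 0 and 8 summed reads in KO-labelled libraries against 2, 1 and 9 in WT-labelled ones. Per kilobase the 9 inhibitors together came to 10942 and 13569 in KO-labelled against 5594 and 5633 in WT-labelled libraries. The ratio of means was 2.18, while that of the ligands was 1.10. Sfrp1 alone made up 66.5% and 67.8% of the inhibitor total in KO-labelled libraries, against 51.5% and 48.6% in WT-labelled ones. A ratio without Sfrp1 was not computed, so 2.18 does not describe the inhibitors in general. The summed stromal markers were also higher in the KO-labelled libraries, and their part in these totals was not tested.

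On the R-spondin axis the main receptor was lower, and so was the ligand with the most reads in the WT-labelled medulla. Lgr4 (chromosome 2, 109917647 to 110014257), which made up 96.1% to 98.1% of the Lgr total per kilobase in every library, had 7882 and 8125 normalized counts in KO-labelled and 12770 and 12310 in WT-labelled libraries (log2 difference -0.65, SE 0.074, limma adjusted p = 0.000477). Lgr6, an R-spondin receptor of skin stem cells, fell to 88.0 and 116 against 457 and 554 (log2 difference -2.31, SE 0.21, adjusted p = 0.000168). Lgr5, a stem cell marker of several epithelia, went the other way at 141 and 126 against 67.0 and 36.8 (log2 difference 1.40, SE 0.33, adjusted p = 0.0106), though it stayed scarce beside Lgr4. The R-spondin with the most reads in the WT-labelled medulla, Rspo3, which is made by stroma and vessels, fell to 67.6 and 98.0 against 242 and 240 (log2 difference -1.55, SE 0.24, adjusted p = 0.00178).

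The other R-spondins were low and uneven. Rspo1, needed for ovary development, had 30.0 and 82.0 normalized counts in KO-labelled and 37.4 and 48.7 in WT-labelled libraries (log2 difference 0.22, 95% interval -0.93 to 1.36). Per kilobase Rspo1 averaged 28.9 in KO-labelled libraries beside 26.8 for Rspo3, and 22.2 beside 78.0 in WT-labelled ones. Rspo2 had 21 summed reads in KO-labelled against 15 in WT-labelled libraries and Rspo4 7 against 20, and neither was tested. The ubiquitin ligases that R-spondins hold in check differed from each other. Rnf43 rose to 1881 and 1970 against 1361 and 1368 (log2 difference 0.50, SE 0.086, limma adjusted p = 0.003). Znrf3 had 1210 and 1398 against 1627 and 1460 and did not pass the threshold (log2 difference -0.24, 95% interval -0.51 to 0.02).

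Of the nuclear effectors and feedback genes 3 rose and 1 did not pass the threshold, where 26.3% of all genes tested rose. Axin2 and Nkd1 are brakes that beta-catenin signalling is known to switch on. Axin2, a scaffold of the beta-catenin destruction complex and a widely used readout, had 2544 and 2975 normalized counts in KO-labelled and 1963 and 1984 in WT-labelled libraries, a 1.40-fold difference (log2 difference 0.48, SE 0.099, limma adjusted p = 0.0064). Nkd1, which binds Dishevelled, had 3805 and 4849 against 2990 and 3175 (log2 difference 0.48, adjusted p = 0.0148), a call lost without KO replicate 2 (0.0703), without WT replicate 1 (0.076) and with no variance trend (0.0749). Tcf7, a transcription factor of the pathway that T cells also express, had 1238 and 1215 against 661 and 482 (log2 difference 1.12, SE 0.16, adjusted p = 0.00126). Lef1, the other factor of that family among the members, had 330 and 342 against 197 and 274 and missed the threshold (log2 difference 0.53, adjusted p = 0.0593), but was called higher without WT replicate 2 (log2 difference 0.77, adjusted p = 0.0281). All 4 genes had both KO-labelled values above both WT-labelled ones, as did 39.8% of all genes tested.

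Other genes of the pathway, 112 in 4 lists, were read beside these members; of the 102 tested, 42 rose and 19 fell, where 26.3% of all genes tested rose and 24.9% fell. Of the surface and secreted list 12 of 22 tested rose and 5 fell. Frzb, a further Sfrp-family decoy, had 7182 and 7484 normalized counts in KO-labelled and 1865 and 1898 in WT-labelled libraries (log2 difference 1.96, limma adjusted p = 8.36e-06). Cthrc1, a secreted matrix protein, rose to 493 and 625 against 127 and 128 (adjusted p = 0.00013), and the glypican gene Gpc6 and the Wnt inhibitor gene Tpbg each rose by a log2 difference of 1.30. Sostdc1, an inhibitor of Wnt and BMP signalling, fell to 5318 and 4911 against 11691 and 12257 (log2 difference -1.23, adjusted p = 4.59e-05). Trabd2b, a Wnt-cleaving protease, and Reck, a membrane protein needed for Wnt7 signalling in vessels, were called lower, with log2 differences of -0.98 and -1.09. Secreted antagonists of the pathway therefore changed in both directions.

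In the cytoplasmic and nuclear list 12 of 34 rose and 4 fell, beside 26.3% and 24.9% of all genes tested. Ctnnb1, the gene of beta-catenin itself, had 55543 and 54495 normalized counts in KO-labelled and 52734 and 51237 in WT-labelled libraries (log2 difference 0.08, 95% interval -0.14 to 0.30). Nkd2, the paralog of Nkd1, rose to 2463 and 2011 against 723 and 654 (log2 difference 1.69, limma adjusted p = 7.78e-05). The co-repressor gene Tle3 rose by a log2 difference of 0.91, Pygo2 by 0.45 and Tnks2 by 0.41. Dvl1, a Dishevelled gene that relays the signal from Frizzled, fell to 3546 and 3116 against 7024 and 7314 (log2 difference -1.11, adjusted p = 0.000106). Tle2, Dvl3 and Tcf7l2 had log2 differences of -1.02, -0.48 and -0.37, all called lower.

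For planar cell polarity 6 of 20 tested genes rose and 4 fell, shares close to the 26.3% and 24.9% of all genes tested. Daam2, a formin that Dishevelled recruits, fell to 1997 and 2642 normalized counts against 6004 and 6505 in WT-labelled libraries (log2 difference -1.44, limma adjusted p = 0.000198). Fuz and Celsr2 had log2 differences of -0.62 and -0.49, and Prickle1, Ankrd6, Dact1 and Dact2 of 0.79, 0.80, 0.55 and 0.54, all past the threshold. Prickle4 was called lower as well, at 2.15 and 9.42 normalized counts in KO-labelled against 57.1 and 58.6 in WT-labelled libraries. It reached the filter through the WT-labelled libraries alone, and its KO-labelled values are too few and too uneven to fix a fold.

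Of 26 tested genes reported elsewhere as Wnt targets, 12 rose and 6 fell. These counts stand beside 26.3% higher and 24.9% lower among all genes tested. Those that rose included the transcription factor gene Sox9 and the fibronectin gene Fn1, with log2 differences of 4.58 and 1.74. The protease gene Mmp7 was also called higher, at 3319 and 2337 normalized counts in KO-labelled against 5.91 and 1.99 in WT-labelled libraries; it reached the filter through the KO-labelled libraries alone. Those that fell included the cyclin gene Ccnd1, at 9798 and 9385 normalized counts in KO-labelled against 19321 and 22475 in WT-labelled libraries (log2 difference -1.12, limma adjusted p = 0.000135), and Pax2, Bambi and Jag1, with log2 differences of -1.14, -0.84 and -0.55. Sp5, a direct target known from embryos and cell lines and named here after its values were seen, had 398 and 403 against 58.1 and 91.4 (log2 difference 2.44, adjusted p = 0.000291). Many genes of this list also respond to other signals, Sox9 stands in the injured-tubule list too, and the 10 injured-tubule markers had summed counts of 496958 to 593213 against 55600 to 59438. Their part in these counts was not tested.

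**Figure D5:**
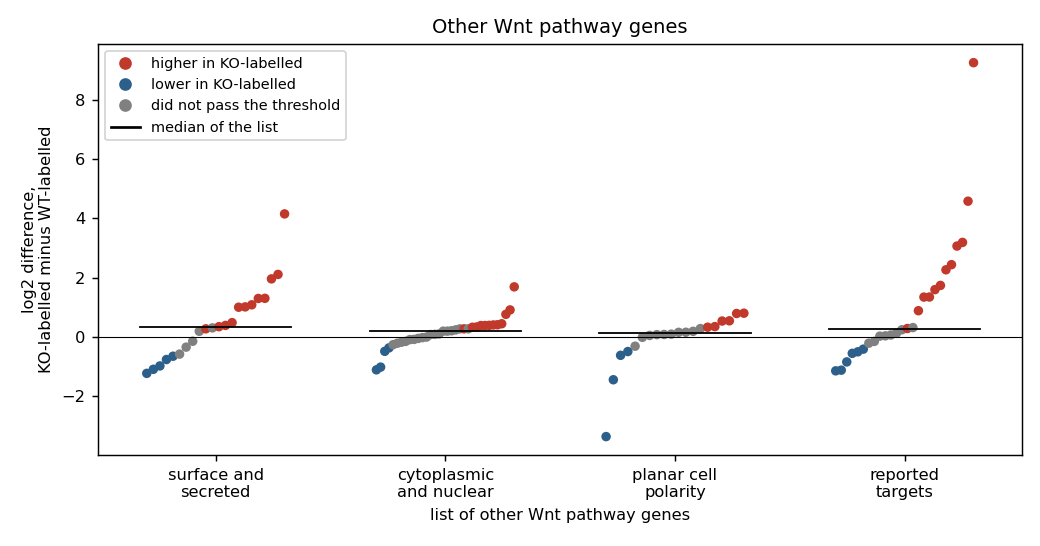
Log2 difference (vertical axis, KO-labelled minus WT-labelled) of each tested gene in the 4 lists of other Wnt pathway genes, ordered by size within a list, with a line at the list's median. The medians are 0.33 for surface and secreted, 0.20 for cytoplasmic and nuclear, 0.13 for planar cell polarity and 0.27 for reported target genes, and each list holds genes called in both directions.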

How the data were processed

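RNA of the medulla of 4 animals (2 Actr3 KO, 2 Actr3 WT; postnatal day 14) was prepared with a Qiagen kit and read on an Illumina instrument, per the labels' protocols. Groups and replicate numbers come from the sample titles. The tools listed are DESeq2 2.11.40.7, featureCounts 2.0.1, HISAT2 2.2.1 and fastp 0.20.1, and the builds mm10 and GRCm38, per the submitters' processing notes. Gene annotation, strand setting and treatment of multi-mapped reads: not given in the sources used here. Gene spans of 23 members overlap another RefSeq gene, among them Wnt3 with Wnt9b, Wnt2b with St7l and Tcf7 with Skp1, so their counts may hold reads of the neighbour.

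The deposited signal values are read counts that the authors divided by 1 size factor per library. This was read from the values: 100% of each column came out whole within 0.001 after division by its step (1.07 and 0.942 in KO, 0.985 and 0.994 in WT). The WT replicate 2 step lies near 1, but only 0.0938% of its values above 0 were whole before division. Entrez IDs were matched to RefSeq symbols and coordinates of GRCm38.p6 (25275 of 27179).

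A linear model with a trended variance (limma 3.58.1, R 4.3.3) was fitted to log2(value + 1) of 16253 genes with a mean of at least 10, two-sided, with Benjamini-Hochberg adjustment over all of them and a threshold of 0.05. This scale understates the change of low genes. Intervals are 95% intervals of that fit; the interval of the Wnt7a read ratio and the limit of 3 reads for a count of 0 cover counting error only. Alternatives were edgeR 4.0.16 (quasi-likelihood) and DESeq2 1.42.0 on the recovered reads, a replicate block, leaving out each library, and other pseudocounts, filters, scalings and variance models. The fits were tested on simulated counts with few changed genes, where the share of false calls lay above the threshold for each of the 3 tools. With 2 animals a group, p-values combine a gene's own spread between these samples with a variance trend taken over all genes tested. They do not measure how animals beyond these vary. Exon lengths are unions of GENCODE vM21 exons, found for 58 members; promoter windows are from RefSeq, found for 38. The members and lists were chosen with earlier results of these data known. Members were named by rule if called, with a mean of at least 100, or with a group at 0; of each list up to 4 genes per direction with the smallest adjusted p were named, except 1 result that is not reported here, and Ctnnb1, Ndp and Sp5 were named after their values were seen.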

Additional observations from a re-analysis of the deposited data

How the results depend on the processing

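Across the alternatives the count of members called ranged from 19 to 24 higher and from 8 to 10 lower, and that of the other pathway genes from 32 to 43 higher and from 15 to 21 lower, all within 1.5 times the counts reported. edgeR called 23 members higher and 10 lower, and DESeq2 the same numbers. Of the 33 members called, 27 kept their call under every alternative in which they were tested. Wnt10b, with a mean of 23.5 over the libraries, was not tested under the filter of a mean of at least 50. The exceptions, Fzd5, Fzd6, Fzd7, Lrp6, Nkd1 and Sfrp4, are given in the report. With the replicate number as a block, 23 members were higher and 10 lower; the numbers are not stated to pair animals, and deviations of same-numbered libraries correlated at -0.056 across genes. Direction reversed only for members not called. For Lrp5 the log2 difference was 0.0026 with TMM scaling and 0.029 after quantile normalization, and -0.095 to 0.089 when 1 library was left out. For Dkk3 it was 0.0013 after quantile normalization and -0.14 to 0.065 with 1 library left out. The leave-one-out ranges were -0.49 to 0.92 for Rspo1, -0.14 to 0.46 for Ror2 and -0.30 to 0.082 for Wnt9b; the cause was not tested. Leaving out 1 library leaves a lone one in its group, taken to vary as the libraries of the other genotype do. No scaling moved the median of all genes by more than 0.02 on the log2 scale. Depth limits Wnt1, Wnt3, Wnt3a, Wnt8a, Dkk1 and Dkk4, each with under 10 reads in all.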
